A study of Mus musculus with 11 samples.

Results

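Haemoglobin and erythroid genes were measured in mouse otospheres, in the cochlear sensory epithelium (CSE) they are grown from, and in embryonic stem cells (ESCs). The genes were the adult alpha globins Hba-a1 and Hba-a2, the adult beta globins Hbb-bt and Hbb-b2, the embryonic globins Hba-x, Hbb-bh1 and Hbb-y, the haem enzyme gene Alas2 and the red cell anion exchanger gene Slc4a1. Every non-control probe whose transcript accession carried 1 of these 9 symbols in RefSeq was taken, which gave 10 of 55681 probes, with 2 probes for Hbb-y and 1 for each other gene. Cy3-labelled RNA was hybridized to 11 single-colour arrays, 6 of otospheres (OS1 to OS6), 3 of CSE and 2 of ESCs. CSE came from newborn ICR mice aged 1 day, and 20 cochleae of 10 mice were pooled per dissection, with spiral ligament and stria vascularis taken off. Otospheres were spheres that dissociated CSE cells of the same strain formed in suspension with bFGF and IGF1, passaged 1 time, with 4 to 5 days of culture on each side of the passage. ESC1 was the line G4-2 and ESC2 the line D3, both at passage 13 and kept with LIF and without feeder cells, so the ESC group holds 1 array per line. The labels name no engineered allele for any group, which does not show that the ESC lines carried none. The array pairs OS1 with OS2 and OS4 with OS5 differed by less than the sampling noise between repeated spots (0.890 and 0.397 times that noise, by a robust SD over bright probes; by a plain SD, 1.08 times for OS1 with OS2). Each pair was averaged and counted as 1 sample, so that the comparisons hold 4 samples of otospheres, 3 of CSE and 2 of ESCs.

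Haemoglobin is a tetramer of alpha-type and beta-type globin chains, each holding a haem group. The genes lie in an alpha cluster on chromosome 11 and a beta cluster on chromosome 7, where embryonic genes serve the first red cells of the yolk sac and adult genes those made later in fetal liver, spleen and marrow. Nucleated red cell precursors switch these genes on under factors such as GATA1 and KLF1, and reticulocytes keep much globin mRNA after the nucleus is lost. The organ of Corti and its surroundings are supplied by capillaries.

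The RefSeq sequences upstream of the annotated start sites are shown for 4 genes that differed together between CSE and otospheres and for the embryonic gene Hba-x, whose probe stayed at background on all 11 arrays. Capitals mark a TATA-type box (spelled ATATAA), the CCAAT box and the CACCC box, each searched by those letters on both strands over the 250 bases before the start site. They also mark GATA-type letters, which were searched as AGATAA and with a final G as AGATAG, and with a first T as TGATAA and with both changes as TGATAG. No match overlapped another in these windows. The windows are given 5′ to 3′ along the gene, on GRCm38.p6: Hba-a1 at chr11:32283422-32283671 (plus strand), Hba-a2 at chr11:32296242-32296491 (plus), Hbb-bt at chr7:103813924-103814173 (minus), Alas2 at chrX:150547167-150547416 (plus) and Hba-x at chr11:32276350-32276599 (plus).
Hba-a1: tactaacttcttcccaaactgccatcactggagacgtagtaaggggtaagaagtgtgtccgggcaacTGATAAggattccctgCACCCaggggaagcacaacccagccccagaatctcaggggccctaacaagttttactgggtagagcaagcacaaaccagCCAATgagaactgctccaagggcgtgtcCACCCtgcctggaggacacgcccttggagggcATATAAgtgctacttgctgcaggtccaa
Hba-a2: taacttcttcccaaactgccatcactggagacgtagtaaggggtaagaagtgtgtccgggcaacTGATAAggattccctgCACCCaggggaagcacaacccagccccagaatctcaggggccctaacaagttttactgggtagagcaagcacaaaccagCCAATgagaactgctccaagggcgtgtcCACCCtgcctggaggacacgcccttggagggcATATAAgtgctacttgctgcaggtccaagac
Hbb-bt: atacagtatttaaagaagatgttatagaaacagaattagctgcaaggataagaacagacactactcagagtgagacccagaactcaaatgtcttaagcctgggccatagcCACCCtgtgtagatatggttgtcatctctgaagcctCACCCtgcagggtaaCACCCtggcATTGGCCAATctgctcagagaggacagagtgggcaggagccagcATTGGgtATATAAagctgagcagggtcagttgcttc
Alas2: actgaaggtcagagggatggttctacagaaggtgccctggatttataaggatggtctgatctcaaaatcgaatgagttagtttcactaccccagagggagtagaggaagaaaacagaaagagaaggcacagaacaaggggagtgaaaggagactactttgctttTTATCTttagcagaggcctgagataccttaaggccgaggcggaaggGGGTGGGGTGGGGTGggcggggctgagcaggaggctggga
Hba-x: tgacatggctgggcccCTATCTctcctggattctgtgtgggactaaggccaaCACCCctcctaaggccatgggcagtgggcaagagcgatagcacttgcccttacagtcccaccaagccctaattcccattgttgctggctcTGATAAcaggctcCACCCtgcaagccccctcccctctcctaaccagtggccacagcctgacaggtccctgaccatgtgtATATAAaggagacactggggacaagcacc

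The Hba-a1 and Hba-a2 windows shared 247 identical bases of 253 aligned columns, and the remaining 6 columns were overhangs from a 3-base shift of the annotated start. Each of these paralogs had an ATATAA match at -28 and -31, a CCAAT at -88 and -91 and a CACCC at -60 and -63 relative to the start, and a TGATAA at -183 and -186. Hbb-bt had 3 CACCC matches (at -140, -104 and -89), 3 CCAAT matches and an ATATAA at -29. Alas2, which encodes the erythroid 5-aminolevulinate synthase, had 3 CACCC matches on the opposite strand (at -40, -35 and -30) and 1 AGATAA match at -86. Hba-x carried TATA-type and CACCC matches and GATA-type letters too, but no CCAAT match, which each adult globin window had. The matches did not sort the genes by signal. Hbb-y, also low in every group, had a CCAAT at -83, while Alas2 had none and Hbb-bt had no GATA-type match. Of 32851 RefSeq windows of the same length, 9.10% held ATATAA, 33.8% CCAAT, 52.0% CACCC and 26.5% a GATA-type match, and a match is a string of letters rather than a measured binding site. Sequences were found for 6 of the 9 genes, leaving Hbb-b2, Hbb-bh1 and Slc4a1 named only.

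**Figure D1:**
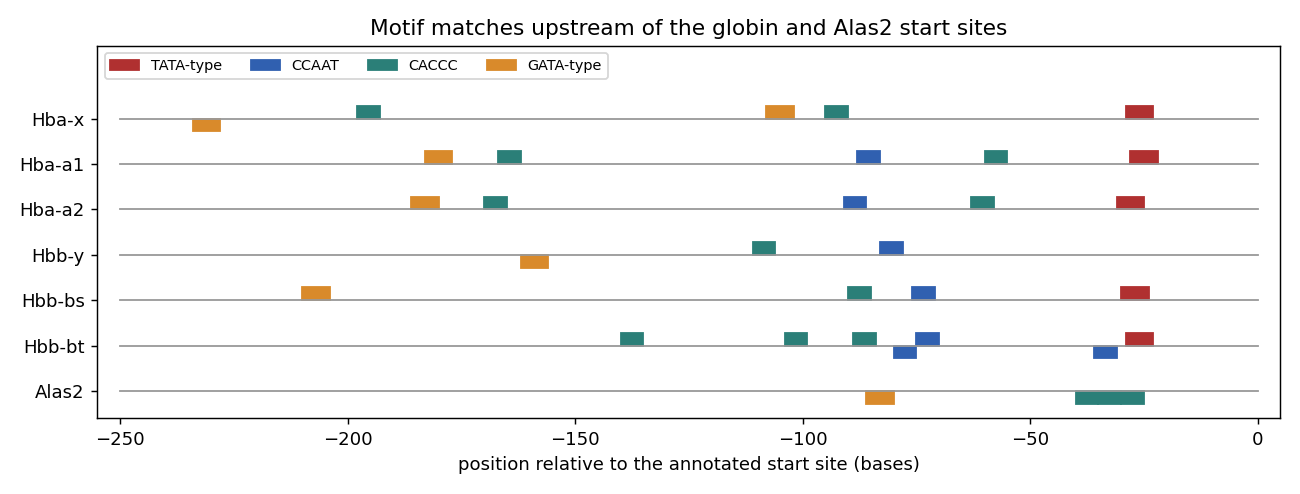
Positions of motif matches in the 250 bases before the annotated start sites of 6 genes of the set and of Hbb-bs, another adult beta globin. The x axis is the distance to the start in bases, and blocks above a line are on the gene's strand and those below it on the opposite strand. Hba-a1 and Hba-a2 have the same matches 3 bases apart, and Alas2 has its 3 CACCC matches side by side on the opposite strand.

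Whether each globin probe can tell paralogs apart was not checked, since the probe sequences were not used. The study's own Hba-a1 forward primer for PCR, tgacagactcaggaagaaacca, matched the bases after the start site of both genes without a mismatch, from base 15 in Hba-a1 and from base 12 in Hba-a2, and not those of Hba-x. The reverse primer had no match in the short stretch searched. For want of probe sequences, the 2 alpha-globin probes and the adult beta-globin probes are reported as readings that paralogs may share. Hbb-bt belongs to the haplotype of the beta cluster in the reference genome, with Hbb-bs, while Hbb-b2 lies on an alternate locus that represents another haplotype, and the probes do not say which haplotype the ICR mice carried.

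Of the 10 probes, 8 passed the filter on dim probes (a signal 10% or more over the negative controls' 95th percentile, on 2 or more arrays), and the Hba-x probe and 1 Hbb-y probe did not. The tests came from limma, fitted with 3 group means, and p-values were adjusted by Benjamini-Hochberg over 47997 probes. In otospheres against CSE, 5 of the 8 tested probes were lower and 0 were higher, beside 6.19% and 4.84% of all tested probes. Hbb-bt and Alas2 were over the filter limit on 4 arrays each, 3 of them CSE arrays. They thus entered the tests through the group where they were high, and the counts describe the set without being separate support. Without the filter, 5 of all 10 probes were lower and 0 higher in otospheres than in CSE. In CSE against ESCs, 5 were higher and 1 was lower, beside 13.2% and 15.6%. In otospheres against ESCs, 3 were lower and 0 were higher, beside 15.6% and 12.1%. Slc4a1 and the tested Hbb-y probe passed the threshold of 0.05 in none of the 3 comparisons. The comparisons share samples, and nothing in the labels says that arrays of a group came from separate cultures or litters, so the p-values measure the spread between these samples, which may be partly technical.

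**Figure D2:**
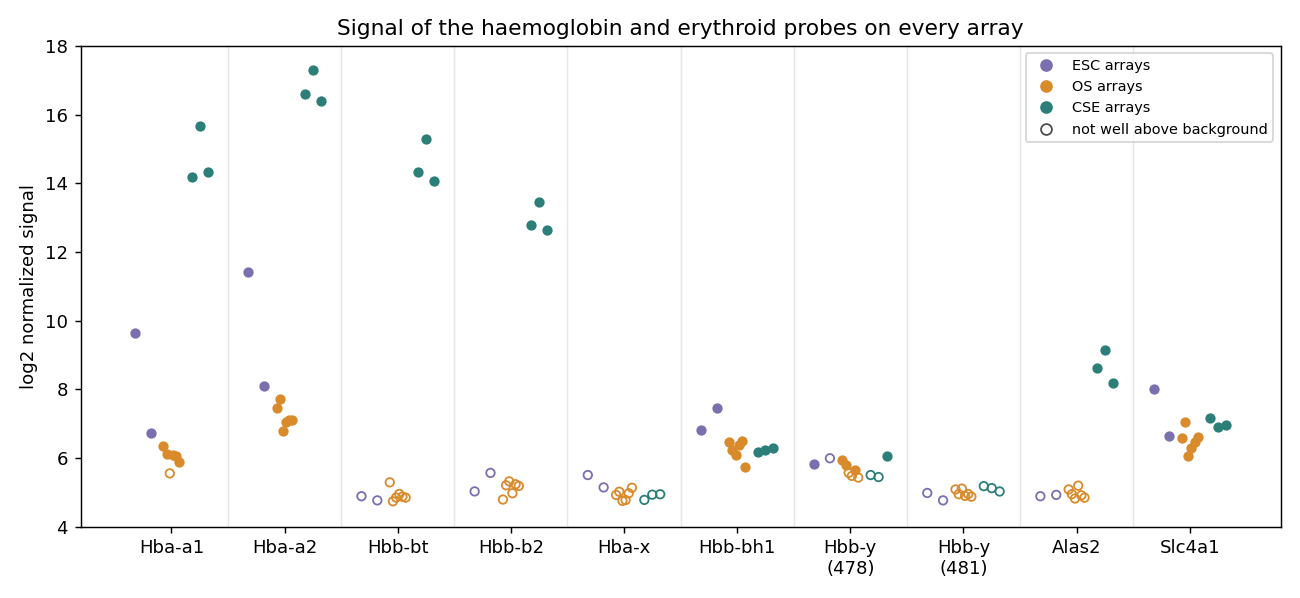
Log2 normalized signal (y axis) of each of the 10 probes (x axis) on the 11 arrays, with filled points for spots well above background and open points for others. The adult globins and Alas2 are high on the 3 CSE arrays, the alpha globins and, less so, Slc4a1 are higher on ESC1 than on ESC2, and the embryonic globins are low in every group.

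Both adult alpha globins were far lower in otospheres than in CSE. Hba-a2 (chromosome 11, 32296492 to 32297310) had a log2 signal of 16.61, 17.31 and 16.38 on the CSE arrays, 7.58, 6.79, 7.09 and 7.10 in the otosphere samples, and 11.41 and 8.10 on ESC1 and ESC2. All CSE values lay above all ESC values, and those lay above all otosphere values. The otosphere mean was below the CSE mean by 9.63 ± 0.66 (log2, SE), a 790-fold difference (limma adjusted p = 8.77e-05). Before normalization the spot intensity was 70759 to 139345 on CSE arrays and 87 to 241 on otosphere arrays, where it was still well above background on 6 of 6.

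Hba-a1 (chromosome 11, 32283672 to 32284486) gave 14.20, 15.66 and 14.33 in CSE, 6.23, 5.55, 6.08 and 5.88 in otospheres and 9.63 and 6.73 in ESC1 and ESC2. The groups were again ordered CSE, ESC, otospheres without overlap, with ESC2 close to the highest otosphere sample. Otospheres were 444-fold lower than CSE (log2 difference -8.79 ± 0.63, limma adjusted p = 1.13e-04). The Hba-a1 spot was well above background on 5 of 6 otosphere arrays, and its raw intensity there was 46 to 98 against a local background of 33 to 36. CSE exceeded ESCs by 6.55 ± 0.76 for Hba-a1 and 7.01 ± 0.79 for Hba-a2 (93.6-fold and 129-fold, limma adjusted p = 3.08e-04 and 2.61e-04). These folds depended on the ESC line: the log2 differences were 8.002 and 8.67 without ESC1, and 5.10 and 5.36 without ESC2.

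The adult beta globins were well above background in CSE alone. Hbb-bt (chromosome 7, 103812524 to 103813923) had log2 signals of 14.32, 15.28 and 14.06 in CSE, 5.01, 4.85, 4.91 and 4.84 in otospheres and 4.88 and 4.76 in ESCs. Its spot was well above background on 3 of 3 CSE arrays and on none of the other 8, so the otosphere and ESC values have no order. A fold is then a bound, taken from the CSE mean against the dimmest signal called well above background on the arrays of the other group (or against the probe's own signal, if higher), on the scale with an offset of 16 in the background correction. It is a bound on that scale only. At an offset of 50 the fitted log2 difference of Hbb-bt between otospheres and CSE was -8.56, which is smaller than the bound. For Hbb-bt the CSE mean was at least 734-fold higher than that of otospheres (limma adjusted p = 3.04e-06) and at least 577-fold higher than that of ESCs (limma adjusted p = 4.84e-07).

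Hbb-b2 behaved alike, at 12.80, 13.45 and 12.64 in CSE, 5.00, 5.32, 5.10 and 5.18 in otospheres and 5.02 and 5.56 in ESCs. It was at least 219-fold lower in otospheres and at least 189-fold lower in ESCs than in CSE (limma adjusted p = 3.04e-06 and 7.01e-07). Hbb-bs, the neighbour of Hbb-bt and no member of the set, was detected on the 3 CSE arrays alone, at 10.81, 11.50 and 10.74, and was at least 61.7-fold lower in otospheres.

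Alas2 (chromosome X, 150547417 to 150570622), the first and rate-limiting enzyme of haem synthesis in red cells, followed the adult globins. Its log2 signal was 8.61, 9.13 and 8.17 in CSE, against 5.01, 4.82, 5.05 and 4.84 in otospheres and 4.88 and 4.92 in ESCs. Only the CSE arrays had it well above background, with raw intensities of 232.5 to 569. It was at least 12.1-fold lower in otospheres (limma adjusted p = 5.18e-05) and at least 9.55-fold lower in ESCs (limma adjusted p = 2.50e-05). For these 3 dim probes the fitted log2 difference between otospheres and CSE moved with the background handling, from -8.56 to -12.48 for Hbb-bt, -6.85 to -10.33 for Hbb-b2 and -2.75 to -6.52 for Alas2, at an offset of 50 and with the processed intensity scaled to the 75th percentile. In RNA from whole tissue or spheres, fewer red cells and less globin or Alas2 RNA per cell cannot be told apart.

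Slc4a1 (chromosome 11, 102348820 to 102365281), which encodes band 3, the main anion exchanger of the red cell membrane, did not share this pattern. Its log2 signal was 7.16, 6.90 and 6.95 in CSE, 6.82, 6.06, 6.38 and 6.62 in otospheres and 8.004 and 6.64 in ESC1 and ESC2. The otosphere samples all lay below the CSE samples, yet the difference of -0.53 had a 95% interval of -1.25 to 0.19 (limma adjusted p = 0.409). That interval does not reach the fitted differences of the adult globins or of Alas2, whose upper end was -3.20. ESC1, not CSE, was highest for Slc4a1.

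The embryonic globins were low everywhere. Hbb-bh1 (chromosome 7, 103841638 to 103843162), a beta-type gene of primitive red cells, gave 6.19, 6.22 and 6.29 in CSE, 6.35, 6.07, 6.44 and 5.73 in otospheres and 6.83 and 7.45 in ESC1 and ESC2, and it was well above background on all 11 arrays. Both ESC lines stood above all other samples. CSE was 1.88-fold and otospheres 1.98-fold lower than ESCs (log2 differences -0.91 ± 0.26 and -0.99 ± 0.25, limma adjusted p = 0.0307 and 0.0172). Without ESC2 neither call held (-0.60 and -0.68, limma adjusted p = 0.198 and 0.138), and the call between CSE and ESCs was also lost without any 1 of the CSE arrays (limma adjusted p from 0.0624 to 0.0820). Otospheres and CSE overlapped and differed by -0.08, with a 95% interval of -0.58 to 0.42.

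The tested Hbb-y probe, for an embryonic beta-type chain, was at 5.50, 5.44 and 6.07 in CSE, 5.87, 5.56, 5.56 and 5.43 in otospheres and 5.82 and 5.99 in ESCs, well above background on 1, 3 and 1 arrays of these groups. The groups overlapped, and the log2 difference between otospheres and CSE was -0.07, with a 95% interval of -0.51 to 0.38. The other Hbb-y probe (4.76 to 5.18 over the 11 arrays) and Hba-x, the embryonic alpha-type gene (4.75 to 5.50), were not well above background on any array. Neither tested embryonic probe was higher in CSE than in otospheres or ESCs by the test.

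**Figure D3:**
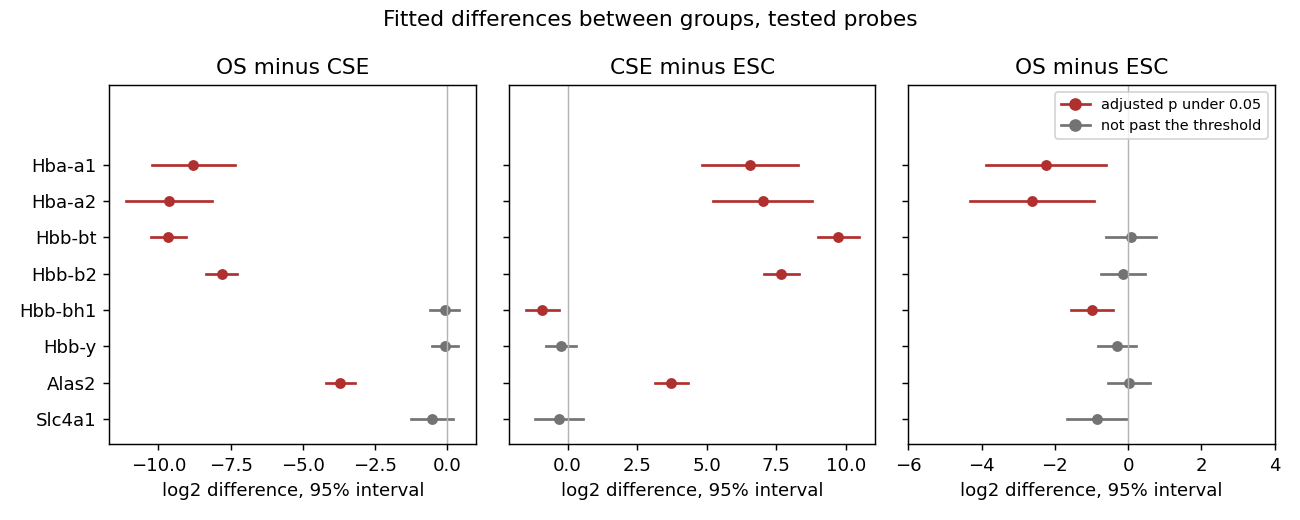
Log2 differences (x axis) with 95% intervals for the 8 tested probes, for otospheres minus CSE, CSE minus ESC and otospheres minus ESC, with an adjusted p under 0.05 in red. The 4 adult globins and Alas2 lie far from 0 in the first 2 comparisons, and only the alpha globins and Hbb-bh1 are red in the third. Where 1 group was not above background (Hbb-bt, Hbb-b2 and Alas2) the plotted value depends on the background correction.

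Among CSE arrays, CSE2 had the highest value for each of the 4 adult globins and Alas2. It exceeded CSE1 by 1.46 for Hba-a1, 0.70 for Hba-a2, 0.96 for Hbb-bt, 0.66 for Hbb-b2 and 0.52 for Alas2. CSE3 lay within 0.44 of CSE1 for the 5 probes. CSE2 also had the largest share of spots well above background, 71.6% against 68.3% on CSE1 and 59.98% on CSE3. Slc4a1 did not follow, being 0.26 lower in CSE2 than in CSE1. The differences from otospheres were present on each slide: on the slide with 2 CSE arrays and on that with 1, Hba-a2 differed by -9.77 and -9.29 and Hba-a1 by -9.04 and -8.35. On both slides Hbb-bt, Hbb-b2 and Alas2 were well above background on the CSE arrays and on no otosphere array.

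ESC1 was higher than ESC2 in adult alpha globin, while a difference in adult beta globin could not be read. ESC1 exceeded ESC2 by 3.31 for Hba-a2 and by 2.91 for Hba-a1, and 36 and 87 of the 47997 kept probes, or 0.075% and 0.181%, showed as large a difference in that direction. The raw intensity was 2831 against 213 for Hba-a2 and 705 against 97 for Hba-a1. Hbb-bt and Hbb-b2 were not above background in either line, at raw intensities of 37 to 50.5, and Alas2 differed by -0.04. The embryonic beta-type Hbb-bh1, well above background on both arrays, differed by -0.62 (ESC1 minus ESC2). Slc4a1 was 1.36 higher in ESC1, as 3.48% of probes were. With 1 array per line, and each on a different slide, these differences have no test, and line and slide cannot be told apart.

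**Figure D4:**
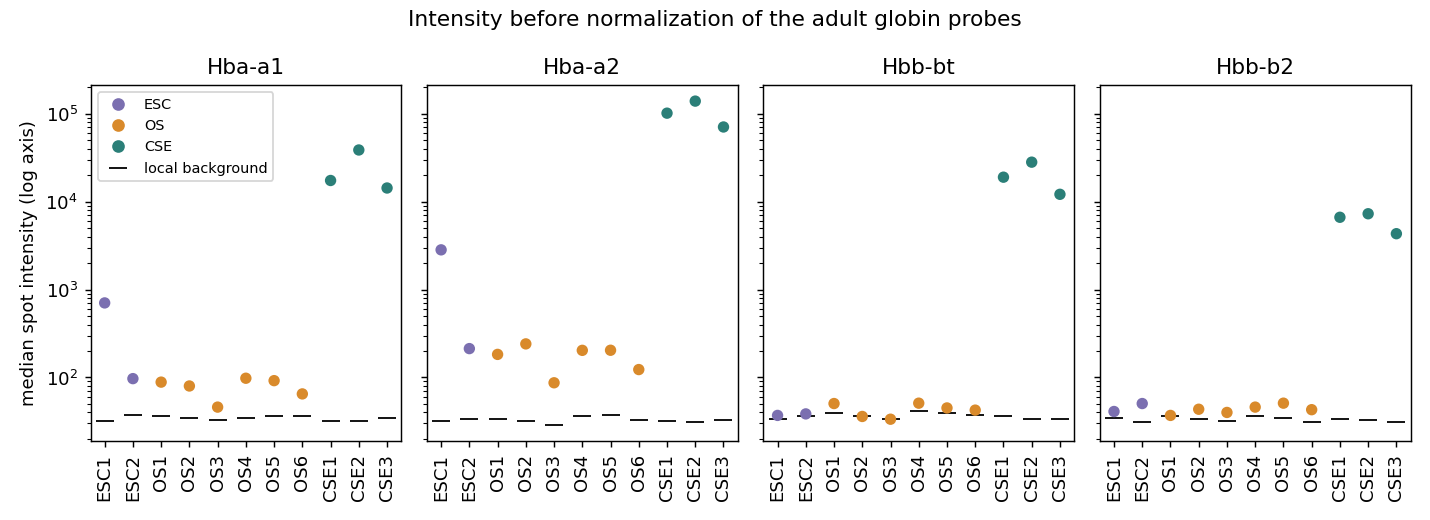
Median spot intensity before normalization (y axis, log scale) of the adult globin probes on each array, with the local background as dashes. Hba-a1 and Hba-a2 are bright on ESC1 and dim but above the dashes on most other ESC and otosphere arrays, while Hbb-bt and Hbb-b2 sit close to the dashes on all 8 arrays outside CSE.

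The alpha-globin calls between otospheres and ESCs were lost without ESC1. Otospheres were lower by 2.24 ± 0.72 for Hba-a1 and by 2.61 ± 0.74 for Hba-a2 (log2, SE, limma adjusted p = 0.0461 and 0.0288). On the slide with ESC1 the differences were -3.74 and -4.22, and on the slide with ESC2 they were -0.75 and -1.005. Without ESC1 neither passed (log2 differences -0.79 and -0.96, limma adjusted p = 0.358 and 0.133). Hba-a1 also missed the threshold without any 1 otosphere sample, CSE1 or CSE3 (limma adjusted p from 0.0631 to 0.0907), and Hba-a2 without OS3, OS6 or OS4 with OS5 (from 0.0527 to 0.0610). Hba-a1 further missed it at an offset of 50 and without the filter on dim probes (limma adjusted p = 0.0828 and 0.0549). Hbb-bt, Hbb-b2 and Alas2 were not above background in either group, so no fold is given.

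Genes within 100 kb of the alpha cluster were taken after the globin values had been seen. Nprl3, whose introns hold the main alpha-globin enhancers, had mean log2 signals of 10.58 in ESCs, 10.25 in otospheres and 10.08 in CSE, with 10.63 and 10.53 on ESC1 and ESC2. Mpg, a DNA repair gene, gave 12.91, 11.39 and 11.84, and was 13.43 on ESC1 and 12.40 on ESC2. Snrnp25, a spliceosome gene, was lower in otospheres than in CSE by 1.05 (limma adjusted p = 0.00432), the direction of the globins, and lower in CSE than in ESCs by 0.84 (limma adjusted p = 0.0118). Sh3pxd2b and Rhbdf1 were higher in CSE than in ESCs, as the globins were, by 1.99 and 0.71 (limma adjusted p = 0.0200 and 0.0335), and did not pass between otospheres and CSE.

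The theta globins interleaved with Hba-a1 and Hba-a2 were highest in ESCs. Hbq1a had mean log2 signals of 7.14 in ESCs, 4.98 in otospheres and 5.33 in CSE, with 7.55 on ESC1 and 6.73 on ESC2. Hbq1b had 6.83 in ESCs, 5.99 in otospheres and 5.89 in CSE. It had the same value, near 6.83, on both lines. CSE was lower than ESCs for Hbq1b by 0.95 (limma adjusted p = 0.00583). Hbq1a was not well above background on any CSE array (limma adjusted p = 0.00146), so the size of its difference is not given. In the beta cluster, Hbb-bh2 differed by -0.21 between otospheres and CSE (limma adjusted p = 0.750), and of 8 olfactory receptor genes within 100 kb 0 passed the threshold in that comparison.

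Other red cell genes were read from lists with 1 probe per gene. Over the 6 lists, 68 genes were tested, of which 11 were lower and 5 higher in otospheres than in CSE, beside 10.3% and 7.17% of the 18565 genes tested, and their median log2 difference was -0.15 beside -0.01 for all genes. Without CSE1 or CSE3, 6 genes were lower in each case, and the 5 higher genes became 2 without CSE2, CSE3 or OS4 with OS5 and 3 without CSE1, OS6 or OS1 with OS2. The share lower, 11 of 68, is somewhat above the background, and the share higher, 5 of 68, is near it. No result is read from the lists as a whole.

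Haem synthesis genes did not follow Alas2. Of 8 tested, Urod (uroporphyrinogen decarboxylase) was lower in otospheres by 0.63 (limma adjusted p = 0.0246), while Cpox (coproporphyrinogen oxidase) and Alas1, the housekeeping counterpart of Alas2, were higher by 2.39 and 0.71 (limma adjusted p = 0.0270 and 0.0317). Their median was -0.03. Cpox was at 10.03, 9.08 and 10.17 in CSE, and among otosphere arrays it was 11.04 to 11.36 on OS1 to OS3 and 12.90 to 13.31 on OS4 to OS6.

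Of 17 genes of the red cell membrane and its cytoskeleton, Rhd, a Rhesus blood group gene, was lower in otospheres, where 2 of 6 arrays had it well above background, by 1.52 (limma adjusted p = 0.0164), and Slc2a1, the glucose transporter GLUT1, was higher by 1.01 (limma adjusted p = 0.0467). Rhd was itself highest in ESCs, at 9.96 and 10.37, against 6.59, 6.25 and 7.29 in CSE. Kel, a blood group protein of the red cell surface, had no spot well above background in any group.

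Among 10 erythroid transcription factors, 5 were lower in otospheres, beside 10.3% of all tested genes, and the median difference from CSE was -1.28. The 5 factors were Tal1 (-2.81), Lmo2 (-2.74), Nfe2 (-2.64), Bcl11a (-2.62) and Cbfa2t3 (-1.75), with limma adjusted p between 0.000401 and 0.0209. Tal1 was well above background on 1 of 6 otosphere arrays. Tal1 and Lmo2 are also known in endothelial cells, and Bcl11a in neurons and lymphocytes. All 5 were lowest of the 3 CSE arrays on CSE2, the array highest in adult globins: Tal1 was at 8.63, 7.09 and 8.70 and Nfe2 at 10.05, 9.44 and 10.37 on CSE1 to CSE3. Gata1, the principal erythroid factor, was not well above background in CSE or otospheres (5.08 to 5.51 over these arrays) and was highest in ESCs, at 7.32 on ESC1 and 8.78 on ESC2. Klf1, the activator of adult beta globin, was at 5.60 on ESC1, 7.11 on ESC2 and 5.65 to 5.99 in CSE. The mean of the 10 factors was 8.12 to 8.14 over the ESC lines, and single factors differed between the lines in both directions.

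Of 10 genes for iron handling and erythropoietin signalling, Slc11a2 (the iron transporter DMT1) was higher in otospheres by 1.21 (limma adjusted p = 0.0130) and none was lower. The same list's gene for globin folding, Ahsp, had no named probe and was not read. Of 20 other red cell genes, 3 were lower, among them Tspan33 (log2 difference -2.19) and the carbonic anhydrase gene Car2 (-2.18), and Isg20 was higher by 1.78 (limma adjusted p from 0.00140 to 0.0269). Car2 is also expressed by epithelial cells. Of 9 genes of haemoglobin scavenging and breakdown, Ftl1 (ferritin light chain) alone passed the test, 0.88 higher in otospheres (limma adjusted p = 0.0490).

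Markers of other blood and vessel cells were read in the same comparison, in which 10.3% of all tested genes were lower and 7.17% higher in otospheres. Of 14 endothelial genes, 9 were lower in otospheres and 0 higher, with a median of -2.48, among them Cldn5 (-6.23), the tight junction protein claudin 5, and Cd93 (-5.79). The mean level of that list was 9.65 to 10.54 in CSE, 6.79 to 7.82 in otospheres and 8.26 to 8.33 in ESCs, and Cdh5 was lower by 2.62. Of 12 macrophage genes, 8 were lower and 1 (Cd14, by 5.50) higher, with a median of -1.37 and list means of 8.28 to 8.63 in CSE and 6.45 to 7.02 in otospheres. Of 10 platelet genes, Pf4 (platelet factor 4; well above background on 3 of 6 otosphere arrays) was lower by 5.16, at 11.08, 11.51 and 11.07 in CSE, while the list means were 7.09 to 7.22 in CSE and 6.28 to 6.72 in otospheres. Of 12 neutrophil genes, Ltf was higher by 4.88 and none was lower, and of 8 lymphocyte genes 0 passed, with median differences of -0.04 and -0.13. Some probes of these 2 lists were bright on all 11 arrays, ESCs included, such as Cd3e (10.64 to 11.45) and Csf3r (14.07 to 16.06). Others, such as Cxcr2, were near background in every group. Such probes limit what the flat medians can show about these cells. On CSE2, the highest array for adult globins, the endothelial and macrophage means were the lowest of the 3 CSE arrays (9.65 and 8.28). The platelet (7.09), lymphocyte (6.94) and cochlear epithelium (13.12) means were lowest there too, and the neutrophil mean was highest (7.39). Within the endothelial list, Emcn and Pecam1 were highest on CSE2 (11.92 and 7.58). The part of these cell types in the globin result was not tested.

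**Figure D5:**
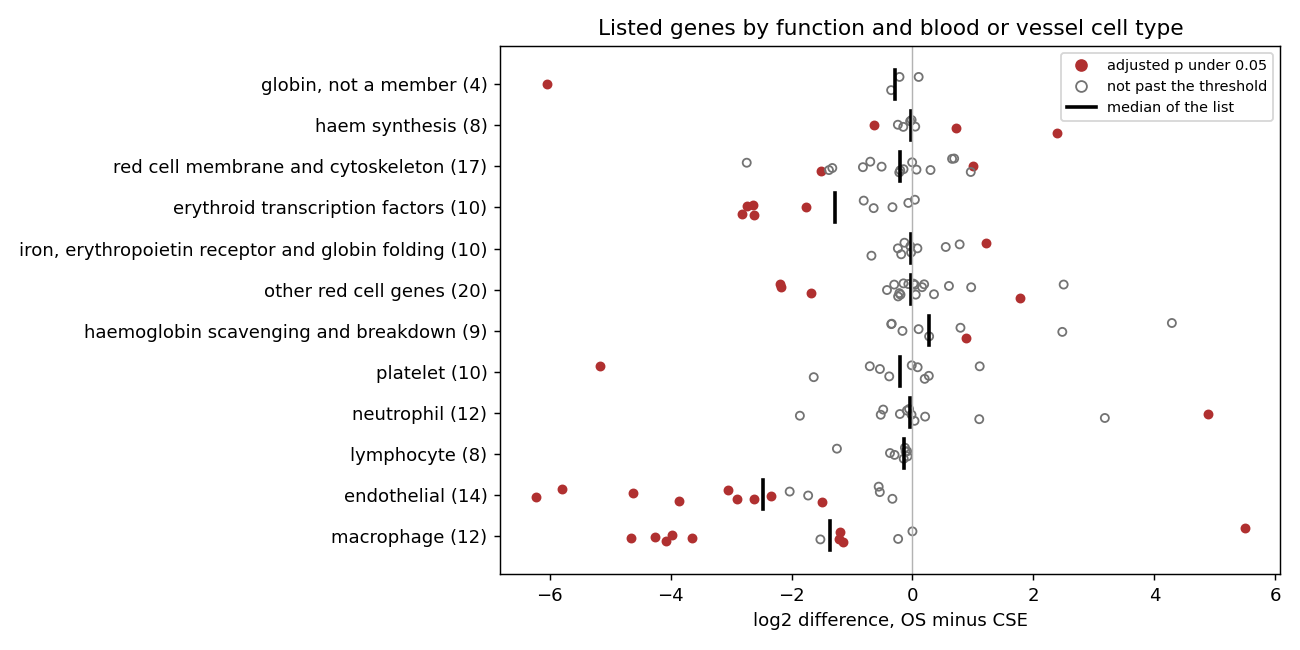
Log2 difference between otospheres and CSE (x axis) for each tested gene of the lists (y axis, number of tested genes in brackets), with an adjusted p under 0.05 in red and the list median as a black bar. The endothelial, macrophage and transcription factor medians lie below -1, while those of the other 9 lists plotted lie within 0.3 of 0, and Hbb-bs and Pf4 stand apart in theirs.

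Most tissue markers differed between CSE and ESCs in the direction of their tissue. Several are among the top genes that the paper reports for these same groups, so the counts are no separate test. Of 12 genes of the cochlear epithelium, 11 were higher in CSE than in ESCs, beside 13.2% of all tested probes, and Sox2 was lower (-1.60). Of these 12, 9 were lower in otospheres than in CSE and 0 higher, beside 10.3% and 7.17% of all tested genes. Of 8 pluripotency genes, 7 were lower in CSE than in ESCs, beside 15.6% of all tested probes, with a median of -6.39. Nanog, on its brightest kept probe, read higher in CSE (mean log2 10.03) than in ESCs (8.38) and did not pass (limma adjusted p = 0.0780). That probe was at 8.26 to 10.75 over the 11 arrays, and no other Nanog probe was read. The paper lists Nanog among its top genes high in ESCs alone, so the level of Nanog is not read from this probe.

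The genes whose profile over the 9 samples was most like the mean profile of the 4 adult globins were found among 2646 named probes with a range of at least 4 log2 units. In order of Pearson's r, those named were Cpne6 (0.992), Hbb-bs (0.991), C1qa (0.988), Abcg5 (0.987), Mybpc1 (0.987), Cx3cr1 (0.984), Fgfr3 (0.982), F13a1 (0.982) and Iqsec3 (0.981). The value of r is driven by the gap between the CSE samples and all others, and it is given as a measure of likeness without a test. Within CSE, Hbb-bs, Mybpc1 (a myosin-binding protein gene) and F13a1 were highest on CSE2, as the adult globins were. F13a1 was at 8.87, 9.39 and 9.33 on CSE1 to CSE3. C1qa and Cx3cr1, genes of macrophages, were lowest on CSE2, at 8.44 and 9.93, and so was Fgfr3, at 13.04.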

How the data were processed

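Values come from 11 single-colour Agilent mouse arrays on 2 slides (55.1% to 71.6% of spots well above background), labelled from 50 or 100 ng of RNA, which the labels do not assign to samples. The deposited scanner files hold median spot and background intensity on the linear scale from Feature Extraction 10.7.3.1, with flags for outlying, saturated and well-above-background spots as other values that the authors deposited. The authors also deposited a log2 table, background-corrected, quantile-normalized and filtered with limma, of 43657 probes. Its column medians were 6.89 to 6.93, and it was used as an alternative.

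Here the normexp method of limma 3.58.1 (R 4.3.3; offset 16) took off the median background, and intensities were then set to log2, quantile-normalized over 11 arrays, cleared of outlier spots and averaged per probe. Transcript accessions named 26762 of 55681 probes through RefSeq (GRCm38.p6), and 47997 probes passed the filter. The threshold was an adjusted p of 0.05. A gene with several probes is represented by its brightest kept probe in the lists. The code was tested on simulated data.

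The members and lists were chosen with earlier results of these data known. From each list, at most 4 genes with the largest difference among those past the threshold are named, with every gene of a list where 5 or fewer passed. Genes near the globin clusters, markers at background and values per CSE or ESC array were chosen after their values were seen. Alternatives were the offset, the scaling, the authors' table, the filter, the slide as a block, every array as a sample, a replicate block and leaving out each sample. Paralogs may cross-hybridize, and probe sequences were not used here. A few listed genes that the naming rules select are not reported here.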

Additional observations from a re-analysis of the deposited data

How the results depend on the processing

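Over 18 alternatives, the 5 probes lower in otospheres than in CSE and the 5 higher in CSE than in ESCs (Hba-a1, Hba-a2, Hbb-bt, Hbb-b2 and Alas2) kept their direction and passed the threshold in each. The fitted size for probes near background in otospheres depended on the background handling: between otospheres and CSE, Alas2 was -2.75 at an offset of 50 and -6.52 with the processed intensity scaled to the 75th percentile, and Hbb-bt was -8.56 and -12.48. Of the values per tested probe, comparison and alternative, 397 kept direction and side of the threshold, 23 lost the call, 2 gained one and 10 changed sign, none of them past the threshold as reported.

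The count of probes lower in CSE than in ESCs, 1 as reported (Hbb-bh1), was 0 with the processed intensity scaled to the 75th percentile, 0 with the replicate block and 0 to 1 when a sample was left out. Scaling to the 75th percentile also moved the median of all probes to -0.25 between CSE and ESCs and to -0.28 between otospheres and ESCs. Of the tested probes, 3 as reported were lower in otospheres than in ESCs, which was 0 with the replicate block (Hba-a1 alone was also lost at an offset of 50, at -1.83, and without the filter on dim probes) and 1 to 3 with a sample left out. The erythroid lists had 6 to 13 genes lower and 2 to 6 higher in otospheres with a sample left out, and 3 higher with the replicate block.

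Sign changes were small. For otospheres minus ESCs, scaling to the 75th percentile gave -0.37 for Hbb-bt and -0.16 for Alas2, leaving out OS4 and OS5 gave -0.0126 for Alas2 (highest with a sample left out 0.0651, without OS3) and leaving out ESC2 gave 0.12 for Hbb-b2 (lowest with a sample left out -0.41, without ESC1). For otospheres minus CSE, Hbb-bh1 was 0.0014 with every array as a sample, 0.0299 with the replicate block and 0.0584 without OS6 (lowest with a sample left out -0.18, without OS4 and OS5), and Hbb-y was 0.10 with the replicate block and 0.13 without CSE3 (lowest with a sample left out -0.18, without CSE2). Slc4a1 in CSE minus ESC was 0.36 without ESC1 and -1.003 without ESC2. Without ESC2 Slc4a1 passed the threshold, in CSE (limma adjusted p = 0.0491) and, at -1.53, in otospheres (limma adjusted p = 0.00797). The causes were not tested.

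The numbers of the replicates did not pair the samples: deviations from the group means of same-numbered otosphere and CSE arrays correlated at 0.36, -0.34 and -0.39, and the replicate block took every array as a sample. Signals near background limit Hbb-bt, Hbb-b2 and Alas2 outside CSE and both embryonic probes that were not tested.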
